A study of Mus musculus with 4 samples.

Results

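The C1q-positive macrophages of mouse liver tumours were 1805 of 25715 cells kept from 3 droplet libraries, 344 of 8403 in the vector tumour and 388 of 6209 and 1073 of 11103 in the tumours with KLF2. A cell was taken as a member when C1qa, C1qb and C1qc together reached 5 of every 10000 of its unique molecular identifiers (UMIs, counts of single RNA molecules) with at least 2 of the 3 genes found. It also had to hold a UMI of Csf1r, Adgre1, Cd68 or Ptprc, and none of Cd3e or Cd79a, the T and B cell receptor chains. The cells were thus chosen by their C1q UMIs and by these marker genes, whose levels are given as a description without a test.

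The tumours came from male C57BL/6 mice, collected at 18 weeks of age and 10 weeks after plasmids had been injected hydrodynamically into the tail vein. All mice received c-MYC and AKT under the EF1α promoter together with SB100X, a transposase that inserts the transgenes into liver cells that take them up. The control group received an empty pT3 vector besides, and the KLF2 group received KLF2 behind the same promoter. Each group had 2 mice, whose tumours were cut up, treated with enzymes for 30 min and made into libraries separately. Vector replicate 1 was not analysed here beyond its gene list and barcodes, so every comparison set vector replicate 2 against KLF2 replicates 1 and 2, and all p-values rest on the spread between those 2 KLF2 mice. The labels name no cell type for any library, and the macrophages are host cells that the plasmids are not known to enter.

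C1q is the recognition part of the classical complement pathway, and macrophages rather than hepatocytes make most of it. In the liver the resident macrophages are Kupffer cells, which sit in the sinusoids, take up particles and old red cells from the blood and carry the lectin Clec4f and the complement receptor Vsig4. Macrophages that derive from monocytes enter tumours and scarred liver, and a lipid-laden state of them is known by Spp1 (osteopontin), Trem2, Gpnmb and Cd9. Interferon gamma drives another state, in which macrophages raise MHC molecules and the T cell attractant Cxcl9.

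The libraries differed in more than genotype. Totals were 45594544, 95374838 and 125458473 UMIs in vector replicate 2 and KLF2 replicates 1 and 2, and the members' median depth was 4722.5, 10813 and 6164 UMIs. The median mitochondrial share of a member's UMIs was 10.2% in vector replicate 2 but 0.348% and 0.466% in the KLF2 replicates. All 13 mitochondrially encoded genes were lower in KLF2 (median log2 change -4.22). The same gap stood between the T cells of these libraries (10.3%, 0.182% and 0.209%), so it cannot be told apart from the group. The gene list of vector replicate 2 held 23421 genes against 26089 and 27251, and a gene it did not list was taken as 0. The 3 libraries shared 550 to 1146 barcode names with one another, in libraries of 6282 to 12852 barcodes.

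The rule asked for only 1 of the 4 leukocyte genes, and the share of members with each is a description. Csf1r, the receptor of the macrophage growth factor, was found in 69.8%, 83.8% and 73.3% of members in vector replicate 2, KLF2 replicate 1 and KLF2 replicate 2, and in 5.49%, 1.19% and 3.96% of T cells, which should lack it. Adgre1, which encodes F4/80, was found in 15.4%, 59.8% and 49.4% of members, so most vector members had none at this depth. Csf1r stood at 305, 365 and 281 CPM (counts scaled to the same total in each library) and Cd68, a lysosomal glycoprotein of macrophages, at 330, 552 and 422 CPM. For Csf1r the vector library lay between the KLF2 libraries. Cd3e and Cd79a were at 0 by the rule. Of the vector members 13.4%, against 6.19% and 4.19% in KLF2, lay in the lowest range of C1q, from 5 to 10 per 10000 UMIs.

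Members just above the threshold, from 5 to 6 per 10000, were 9, 6 and 7 cells, and cells just below it, from 4 to 5, were 14, 8 and 10. The median C1q sum of a member was 43.3, 65.7 and 87.8 per 10000 UMIs. Summed over members, C1qa, C1qb and C1qc stood at 2002, 2002 and 1408 CPM in vector replicate 2. They stood at 2929, 2362 and 2313 CPM in KLF2 replicate 1 and at 3433, 1928 and 2674 CPM in KLF2 replicate 2. C1qa (chromosome 4, 136895917 to 136898803, minus strand, GRCm38) is flanked by C1qc (136889804 to 136893065) and C1qb (136880129 to 136886187). Cells that should lack these transcripts held some of them: 27.9%, 21.4% and 33.7% of T cells held a C1q UMI, and 4.12%, 0% and 4.95% lay over the C1q threshold of the rule.

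Macrophages were a larger share of the kept cells in both KLF2 tumours than in the vector tumour. The share was 4.09% in vector replicate 2 (95% Wilson interval 3.69 to 4.54, which here and below covers counting error only). It was 6.25% (5.67 to 6.88) in KLF2 replicate 1 and 9.66% (9.13 to 10.2) in KLF2 replicate 2, a mean 1.94 times that of the vector tumour. The 2 KLF2 tumours differed from each other by more than the gap between the lower of them and the vector tumour. A 1 against 2 design can reach no p below 0.33 in a one-sided exact permutation test, so none was given. Among cells with a UMI of Ptprc, the CD45 of white blood cells, macrophages were 6.12% in the vector tumour and 38.6% and 39.6% in the KLF2 tumours. T cells, counted as cells with at least 2 UMIs of Cd3d, Cd3e and Cd3g, numbered 2935 in vector replicate 2 and only 84 and 303 in the KLF2 libraries, so the denominator moved as well.

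**Figure D1:**
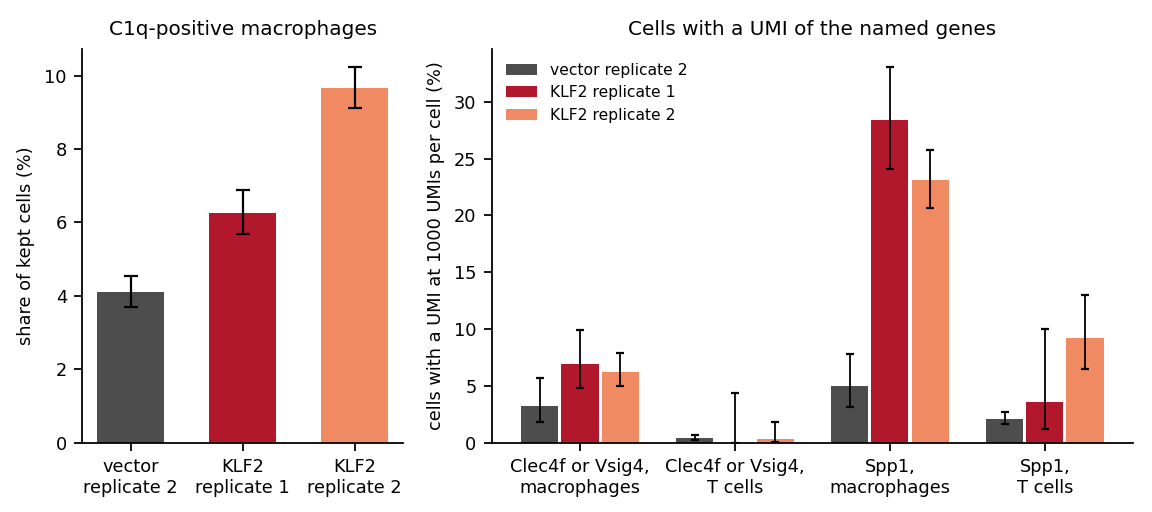
Shares by library with 95% Wilson intervals, in percent: macrophages among all kept cells, and Kupffer-like and Spp1-positive cells among macrophages thinned to 1000 UMIs, with T cells of the same library as the background. The Spp1-positive share is 4.97% in vector replicate 2 and 28.4% and 23.1% in the KLF2 replicates, above the T cell share in each KLF2 library.

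For the comparison of genes, the UMIs of all members of a library were summed and the 3 sums were tested with edgeR's quasi-likelihood test and Benjamini-Hochberg adjustment at 0.05. Of 13241 genes tested, 1177 rose in the KLF2 macrophages (8.89% of those tested) and 797 fell (6.02%). The median log2 change of all genes tested was 0.16, and changes below are to be read against that level. Counts of list genes that rose or fell are likewise to be read against 8.89% and 6.02%. Of the genes that rose, 116 were not in the gene list of vector replicate 2 and 177 were predicted genes or clone names. A sum per library cannot tell more RNA in each cell from more cells of a state.

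The counts depended on which cells were summed. Without members that held a UMI of a lymphocyte gene, 279 genes rose and 225 fell. That set kept 141 of 344 members in vector replicate 2, so most vector members held such a UMI. It kept 331 of 388 and 886 of 1073 members in KLF2 replicates 1 and 2, so it cut mainly the vector side. Without members that held a Spp1 UMI only 75 genes rose and 97 fell. With every cell thinned to 1000 UMIs the counts were 286 and 175. DESeq2 called 544 higher and 407 lower. Of the 119 named genes past the threshold, 0 turned direction when either KLF2 library was left out. That was fixed beforehand for the highest and deepest genes, which were chosen as at least 2-fold apart in each KLF2 library. Without the cells with a lymphocyte gene 67 of 112 tested stayed past the threshold, and without Spp1-positive cells 25 of 114. Vsig4 lost its call without the cells with a lymphocyte gene, and Ier3, Fos and Klf9 lost theirs without Spp1-positive cells. The genes named next do not cover all those described below. Among the genes described below, Fcrls, Il1a, Il10 and Cxcl2 among the higher and Cxcl9, Slamf8, Lilrb4a, Ciita and Tap1 among the lower lost their call in none of the alternatives that tested them. Saa3, Arg1, Hilpda, Cxcl1, Marco, Apoe, Osm, Cd14, Hmox1, Fth1, Abca1, Bnip3, Vegfa, Slc2a1, Ctsl and C3 lost theirs without Spp1-positive cells. Folr2, Cd163, Atp6v0d2, H2-Ab1, H2-DMb2, Cd40, Nlrc5, Ifit1, Ifi205, Fn1, Thbs1, Itgam, F13a1, Ccl24, Tnfsf9, Cxcl13, Lyve1, Dnase1l3, Mki67, Hspa1b and Klf2 lost theirs there and in at least 1 other alternative.

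The genes that rose most, among those at least 2-fold above the other cells of the same KLF2 libraries, held Saa3, Cxcl1, Arg1, Fcrls, Il1a, Hilpda, Prg4, Cxcl2 and Spp1. Saa3, an acute phase protein that macrophages secrete, stood at 1.85 CPM in vector replicate 2 and at 4511 and 543 CPM in KLF2 replicates 1 and 2. Both KLF2 libraries were far above the vector library, and KLF2 replicate 1 was far above KLF2 replicate 2. Arg1 (chromosome 10, 24915221 to 24927484, minus strand, GRCm38), which turns arginine into ornithine and urea, stood at 5.09, 4965 and 854 CPM. Its log2 change was 8.82 (SE 1.33, edgeR adjusted p = 0.006). All other cells pooled held far less Arg1 RNA, 13.6, 89.9 and 32.8 CPM, and so did T cells, 7.64, 23 and 23.1 CPM. Monocytes, 101, 66 and 105 cells with at least 2 monocyte genes, did not: they held 0, 3376 and 842 CPM. Cxcl2 in monocytes stood at 33.6, 1569 and 1091 CPM and Hilpda at 13.5, 410 and 154 CPM. Saa3 stood lower there, at 55.5, 358 and 126 CPM, and Fcrls at 0, 0.809 and 0 CPM.

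Hilpda, a lipid droplet protein that responds to low oxygen, stood at 4.17, 435 and 225 CPM (log2 change 5.96, SE 0.63, edgeR adjusted p = 0.001). Fcrls, an Fc receptor-like scavenger receptor, rested on 1 vector UMI and stood at 0.463, 54.7 and 44.1 CPM, a pooled ratio of 103 with a 95% counting interval of 18.5 to 4086. Prg4, a lubricating proteoglycan, rested on 2 vector UMIs and stood at 0.926, 100 and 23.4 CPM. Prg4 lost its call with the other size factors, the higher C1q minimum, thinning and both narrower cell sets. Patl2 stood at 177 and 192 CPM and Tnfsfm13 at 89.1 and 64.8 CPM in the KLF2 libraries, and both were missing from the gene list of vector replicate 2 though not from that of vector replicate 1, so no fold was taken.

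**Figure D2:**
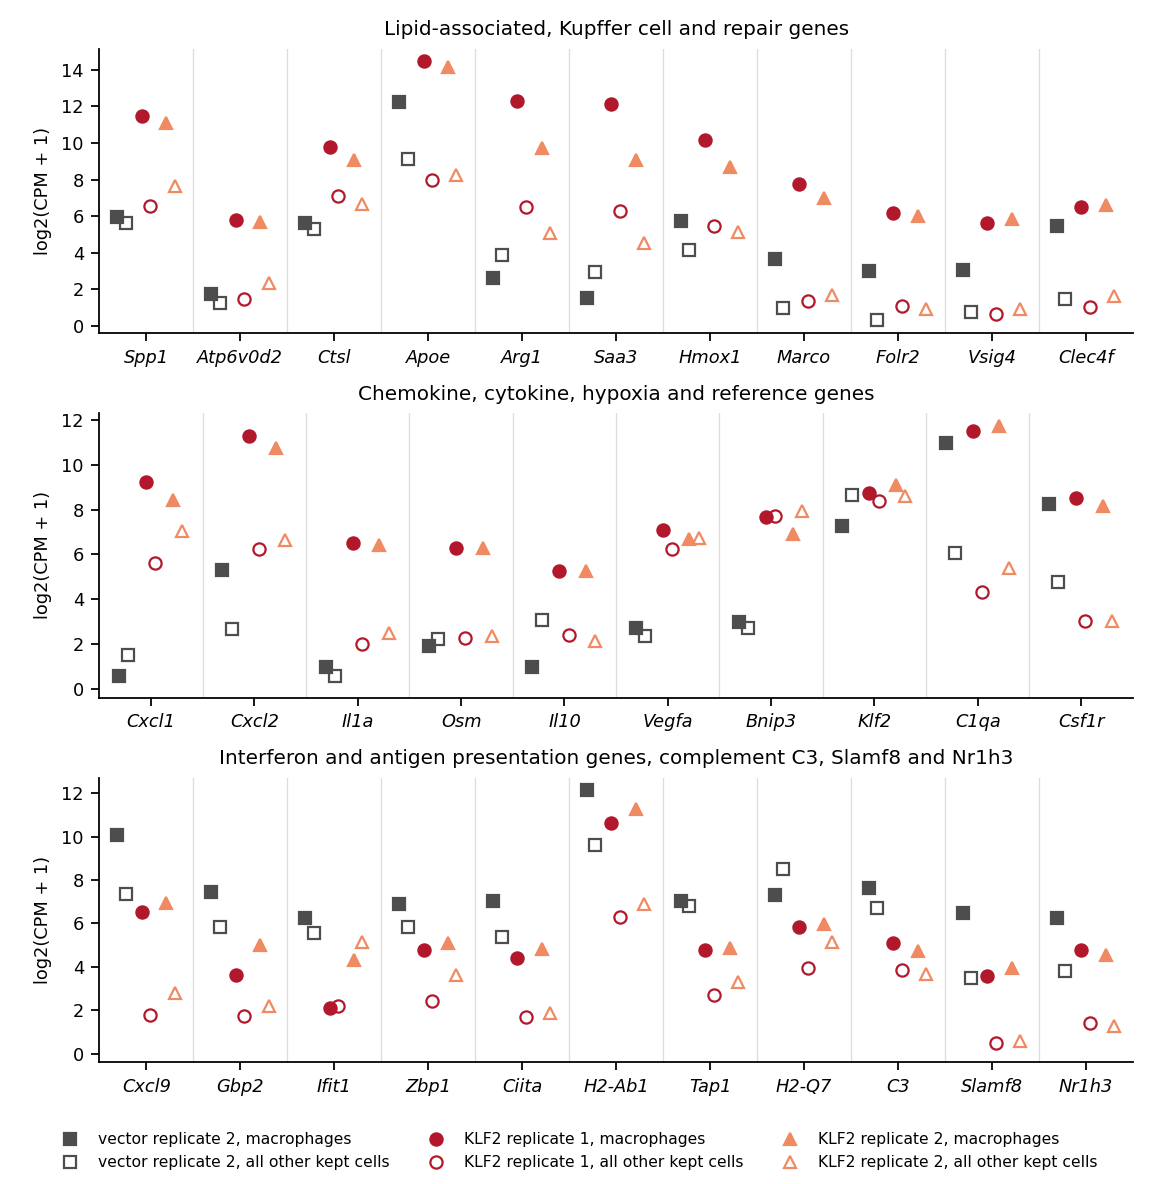
Levels as log2(CPM + 1) in the summed macrophages of each library (filled marks) and in all other kept cells of the same library (open marks), in 3 panels of genes. In Spp1, Arg1 and Saa3 the KLF2 macrophages lie above the vector macrophages and above the other cells, and in Cxcl9 and Ciita they lie below the vector macrophages.

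Among genes at least 2-fold above the other cells of the vector library, Cxcl9, Gbp2, Slamf8, Lilrb4a and Ciita fell most. Cxcl9 (chromosome 5, 92321347 to 92328079, minus strand, GRCm38), which draws CXCR3-bearing T cells, stood at 1071 CPM in vector replicate 2 and at 91.4 and 121 CPM in the KLF2 libraries (log2 change -3.67, SE 0.30, edgeR adjusted p = 4.2e-04). The other cells held 162, 2.40 and 5.86 CPM. Gbp2, a guanylate-binding protein of the interferon response, stood at 171, 11.5 and 31.0 CPM, and Slamf8, a macrophage surface receptor, at 87.5, 10.9 and 14.2 CPM. Lilrb4a, an inhibitory receptor, stood at 180, 24.5 and 30.3 CPM and Ciita, the master activator of MHC class II genes, at 129, 20.3 and 27.3 CPM. In all 5 genes both KLF2 libraries lay well under the vector library, with Gbp2 lower in KLF2 replicate 1 than in KLF2 replicate 2. Calhm6, Naaa, Zbp1, Adap2os, Cfb, Dnase1l3 and Fgd2 completed the 12 deepest, with log2 changes from -2.35 to -2.04. Gbp2, Calhm6, Naaa, Zbp1, Cfb, Dnase1l3 and Fgd2 lost their calls without Spp1-positive cells, and Adap2os after thinning.

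Kupffer cell genes rose in part. Of 20 genes that mark Kupffer cells, 7 rose and 2 fell, with a median log2 change of 1.16. Their sum was 520, 1219 and 1387 CPM in members and rose in the other cells too, at 338, 1253 and 1159 CPM. Of the 20 genes 3 passed the test against the change in T cells, all above. Vsig4 (chromosome X, 96247203 to 96293438, minus strand, GRCm38) stood at 7.41, 47.4 and 56.1 CPM (log2 change 2.46, SE 0.37, edgeR adjusted p = 0.005). Marco, a scavenger receptor for bacteria and particles, stood at 11.6, 212 and 126 CPM, and Folr2, a folate receptor of resident macrophages, at 6.94, 70.0 and 62.5 CPM. In each of these the vector library was far lower than both KLF2 libraries. The change in macrophages did not pass the test against that in T cells for Vsig4, Marco or Folr2.

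Clec4f, the gene that defines Kupffer cells most closely, stood at 43.0, 89.7 and 97.1 CPM and did not pass (log2 change 0.78, SE 0.29, edgeR adjusted p = 0.115). Cd163, the haemoglobin scavenger receptor, rested on 3 vector UMIs and stood at 1.39, 19.3 and 15.3 CPM, a pooled ratio of 12 with a counting interval of 4.07 to 58.8. Nr1h3, which encodes the oxysterol receptor LXRα that Kupffer cells need, went the other way, 74.5, 26.4 and 22.4 CPM (log2 change -1.96). The count of Kupffer genes was 3 higher and 1 lower of 16 after thinning, 2 and 1 without cells holding a lymphocyte gene, and 1 and 0 without Spp1-positive cells.

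Kupffer-like members, those with a UMI of Clec4f or Vsig4, were few in every library. After thinning to 1000 UMIs they were 3.22% of members in vector replicate 2 (1.81 to 5.67), 6.96% (4.83 to 9.94) in KLF2 replicate 1 and 6.24% (4.95 to 7.85) in KLF2 replicate 2. The intervals of the vector library and of both KLF2 libraries overlapped. In T cells the share was 0.377%, 0 of 84 cells, which allows up to 3.57%, and 0.330%. Before thinning the Kupffer-like cells were 15, 48 and 112, or 4.36%, 12.4% and 10.4%. Without them 886 genes rose and 594 fell in the sums of the remaining members.

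Within the KLF2 libraries the Kupffer-like cells were set apart by the rest of the Kupffer list. Of 18 Kupffer genes with 30 or more UMIs, 17 were at least 2-fold higher in them than in the other members of both KLF2 libraries, against 1.87% of 12275 genes overall. Cd5l, a secreted scavenger protein of Kupffer cells, stood at 1212 CPM against 16.8 CPM in KLF2 replicate 1 and at 1471 against 22.9 CPM in KLF2 replicate 2. Timd4, the phosphatidylserine receptor of resident macrophages, stood at 134 against 1.29 CPM and at 194 against 2.69 CPM. The iron exporter Slc40a1, also of the list, stood at 528 against 20.2 CPM and at 365 against 23.5 CPM. Apoc1, a lipoprotein component outside the list, stood at 1444 against 22.6 CPM and at 2048 against 35.4 CPM.

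Those cells held less Spp1, Arg1 and Saa3. Spp1 stood at 141 CPM in Kupffer-like cells against 3216 CPM in the others of KLF2 replicate 1, and at 815 against 2403 CPM in KLF2 replicate 2. Before thinning, a Spp1 UMI was found in 31.25% of Kupffer-like cells and 57.9% of the others in KLF2 replicate 1. In KLF2 replicate 2 the shares were close, 49.1% (40.0 to 58.2) and 52.0%. Arg1 stood at 636 against 5507 CPM and at 198 against 939 CPM, and Saa3 at 720 against 4985 CPM and at 4.52 against 613 CPM. Of 24 genes of lipid-associated macrophages 8 were at least 2-fold lower and 0 higher in Kupffer-like cells of both KLF2 libraries, against 4.55% of all genes lower. These are descriptions of 1 split of the cells, with no test.

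**Figure D3:**
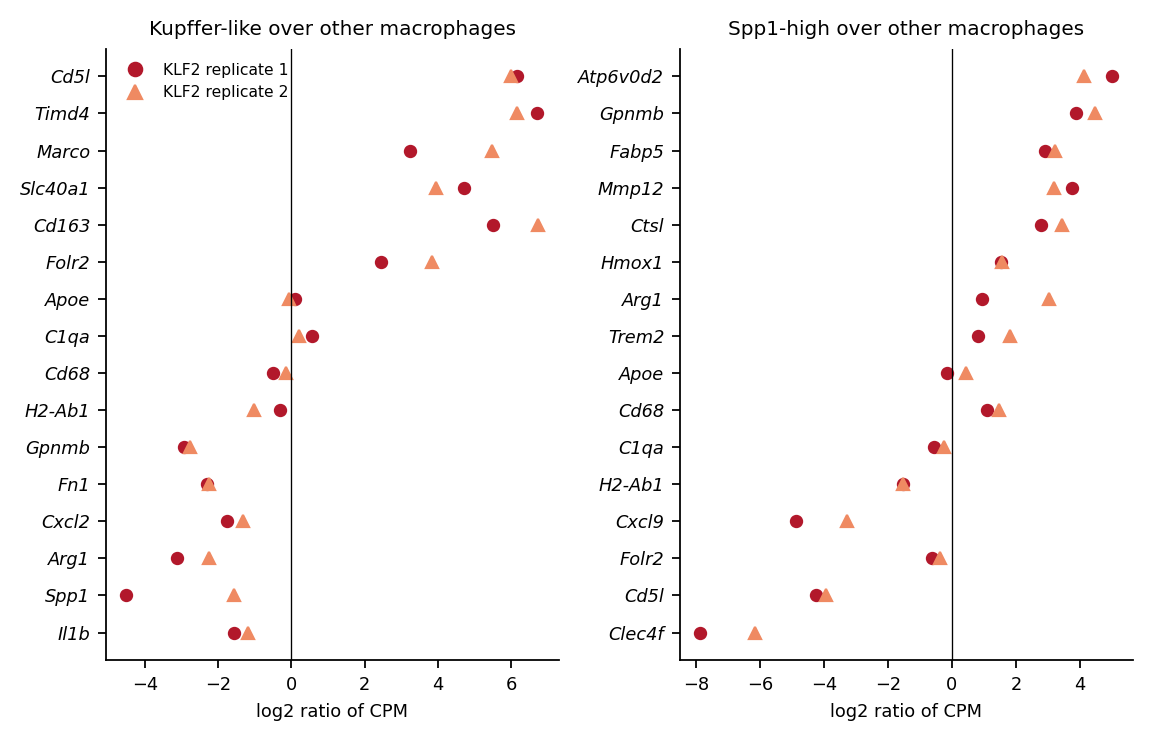
Log2 ratios of CPM, 1 mark per KLF2 library: Kupffer-like over the other members (left) and members with at least 5 Spp1 UMIs per 10000 over the rest (right). Cd5l, Timd4 and Marco lie above 0 on the left in both libraries and Arg1, Gpnmb and Spp1 below it, while Gpnmb and Mmp12 lie above 0 on the right and H2-Ab1 and Cxcl9 below it.

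Spp1 was higher in the KLF2 macrophages of both libraries. Spp1 (chromosome 5, 104435118 to 104441050, plus strand, GRCm38) stood at 60.2 CPM in the vector macrophages and at 2874 and 2221 CPM in the KLF2 macrophages. Its log2 change was 5.06 (SE 0.39, edgeR adjusted p = 3.4e-04), and the 2 KLF2 libraries lay far above the vector library. In all other cells pooled Spp1 stood at 48.0, 93.6 and 200 CPM. The vector macrophages lay close to that level and the KLF2 macrophages far above it. Monocytes went the same way as the macrophages, with Spp1 at 30.3, 1051 and 1954 CPM.

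After thinning, Spp1 was found in 4.97% of vector members (3.13 to 7.82) and in 28.4% (24.1 to 33.0) and 23.1% (20.7 to 25.7) of KLF2 members. The T cell shares were 2.13%, 3.57% and 9.24%, highest in KLF2 replicate 2, and the members lay above them in every library. Before thinning the shares were 18.0%, 54.6% and 51.7% in members and 7.87%, 14.3% and 32.7% in T cells. With at least 5 Spp1 UMIs per 10000, which fewer T cells reached (1.19%, 2.38% and 6.27%), the members were 6, 104 and 209 cells, or 1.74%, 26.8% and 19.5%.

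The wider lipid-associated list rose in part. Of 24 genes 9 rose and 2 fell, with a median log2 change of 0.92. Trem2, the lipid receptor that gives the state its name in many studies, stood at 118, 342 and 206 CPM and did not pass (log2 change 0.87, SE 0.38, edgeR adjusted p = 0.162). Ctsl, a lysosomal protease, stood at 48.6, 862 and 537 CPM, and Atp6v0d2, a proton pump subunit, at 2.31, 54.9 and 50.4 CPM. Apoe, which carries cholesterol out of macrophages, was the most abundant gene of the list at 4848, 22524 and 18070 CPM (log2 change 1.73, SE 0.27, edgeR adjusted p = 0.006). Fabp4, a fatty acid binding protein that endothelial cells also make, fell from 405 to 44.2 and 56.2 CPM, while the other cells went from 1491 to 55.3 and 70.3 CPM. Without Spp1-positive cells 0 of 23 genes passed in edgeR in either direction, 3 were higher and 6 lower at an unadjusted p of 0.05, and the median was 0.33.

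The members with high Spp1 held the other genes of that state. Of 23 lipid-associated genes, 13 were at least 2-fold higher in members at 5 or more Spp1 UMIs per 10000 than in the rest, in both KLF2 libraries, against 1.41% of 12275 genes. Gpnmb, a lysosomal membrane glycoprotein, stood at 761 against 52.3 CPM in KLF2 replicate 1 and at 1251 against 56.0 CPM in KLF2 replicate 2. Mmp12, the macrophage elastase, stood at 2503 against 185 CPM and at 2626 against 290 CPM. Fabp5 stood at 1499 against 198 CPM and at 2132 against 227 CPM. Members with any Spp1 UMI were deeper, with medians of 14487.5 and 8359 UMIs against 7815.5 and 4812.5 in those with none, and the part of depth in the split was not tested.

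MHC class II ran opposite to Spp1. Of 15 class II genes, 8 were at least 2-fold lower in the members with high Spp1 in both KLF2 libraries, against 4.99% of all genes. H2-Ab1 stood at 693 against 2005 CPM and at 1014 against 2901 CPM, and Cxcl9 at 4.63 against 134 CPM and at 15.9 against 153 CPM. Of 20 Kupffer genes 12 were lower as well. Klf2 itself was alike on both sides, 406 against 427 CPM and 563 against 536 CPM.

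Arg1 was found more often in KLF2 members with a Spp1 UMI than in those without. After thinning, Arg1 was found in 0.292% of vector members and in 51.0% and 14.5% of KLF2 members, beside 0.514%, 1.19% and 1.98% of T cells. In KLF2 replicate 1 it was found in 80.0% of 110 Spp1-positive members and in 39.6% of 278 others, and in KLF2 replicate 2 in 35.1% of 248 and in 8.36% of 825. H2-Ab1 was found in 22.2% of the Arg1-positive members against 60.0% of the rest in KLF2 replicate 1, and in 34.6% against 70.6% in KLF2 replicate 2. Per cell, the median H2-Ab1 level was 33.7, 2.90 and 18.9 per 10000 UMIs in the 3 libraries, so KLF2 replicate 1 had more Arg1-positive and fewer H2-Ab1-rich members than KLF2 replicate 2.

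**Figure D4:**
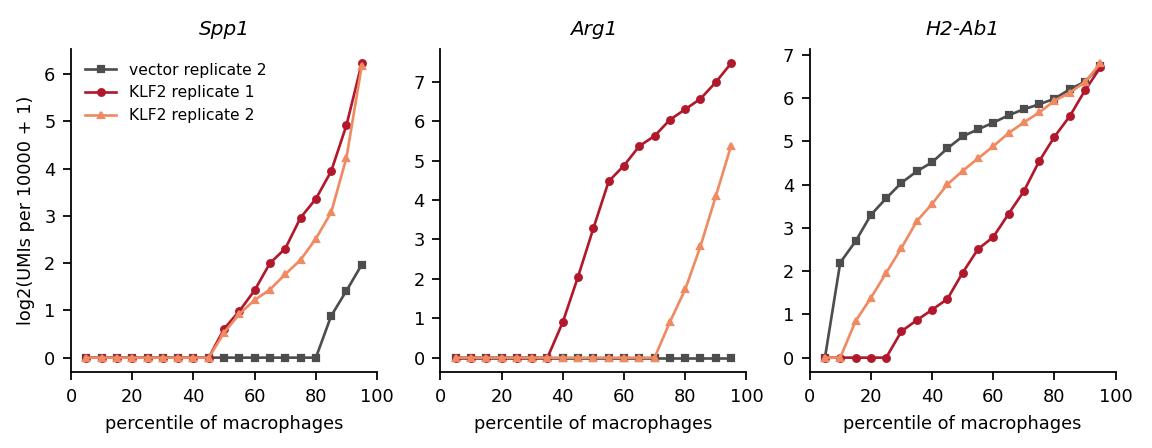
UMIs per 10000 of single members against the percentile of the member within its library, for Spp1, Arg1 and H2-Ab1, shown as log2(UMIs per 10000 + 1) with 1 line per library. The upper members carry Spp1 and Arg1 in the KLF2 libraries, where the 95th percentile of Spp1 is 74.0 and 71.5 against 2.91 in vector replicate 2.

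Inflammatory cytokines and chemokines rose in part. Of 25 genes of inflammatory cytokines and the NF-κB pathway 10 rose and 2 fell (median log2 change 1.08), and of 22 chemokines 8 rose and 3 fell (median 0.57). Cxcl2 (chromosome 5, 90903871 to 90905938, plus strand, GRCm38), a ligand of the neutrophil receptor CXCR2, stood at 38.4, 2467 and 1697 CPM (log2 change 5.42, SE 0.43, edgeR adjusted p = 4.2e-04). Cxcl1, another such ligand, rested on 1 vector UMI and stood at 0.463, 607 and 344 CPM, a pooled ratio of 942 with a counting interval of 169 to 37212. Cxcl3 had no UMI in the vector macrophages and 28.3 and 23.6 CPM in KLF2, at least 17.0-fold higher against the 3 UMIs that a count of 0 allows. Cxcl13, which draws B cells, had none either and 62.1 and 27.7 CPM, at least 20.0-fold higher.

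Il1a, an alarm cytokine, stood at 0.926, 89.1 and 84.3 CPM, on 2 vector UMIs, and Il10, which restrains inflammation, at 0.926, 37.7 and 37.4 CPM, on 2 as well. Osm, a cytokine of the IL-6 family that acts on stromal and liver cells, stood at 2.78, 77.8 and 77.5 CPM. The 2 KLF2 libraries were nearly level in these 3 genes. Il10 in T cells stood at 14.4, 26.6 and 4.01 CPM and did not follow. Cd14, the co-receptor for endotoxin, stood at 56.9, 675 and 473 CPM (log2 change 2.99, SE 0.38, edgeR adjusted p = 0.003). Without cells holding a lymphocyte gene 7 inflammatory genes and 5 chemokines were higher, and without Spp1-positive cells 2 and 1.

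The start sites of Cxcl1 and Cxcl3 are shown because both genes were at or near 0 in the vector macrophages and hold the same NF-κB site. Each sequence is the 150 bases before the gene's start in RefSeq (GRCm38.p6), 5′ to 3′ on the gene's strand, with matches of the motif GGGA and TTCC, 2 bases apart, on either strand in capitals. In each, a match on 1 strand overlaps that on the other by all but 1 base.
Cxcl1, chr5:90891095-90891244, plus strand: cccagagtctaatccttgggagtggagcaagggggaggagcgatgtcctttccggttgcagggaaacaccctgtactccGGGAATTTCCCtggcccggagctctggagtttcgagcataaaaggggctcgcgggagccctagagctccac
Cxcl3, chr5:90785951-90786100, plus strand: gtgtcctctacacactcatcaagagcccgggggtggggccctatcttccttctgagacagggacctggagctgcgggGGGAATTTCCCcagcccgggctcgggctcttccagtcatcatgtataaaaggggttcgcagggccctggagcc
The site began 71 bases before the start of Cxcl1 and 73 before that of Cxcl3. In windows from 250 bases before to 50 after the start, 4 of the 16 chemokines in the RefSeq table held the motif (25%), against 1.63% of 27025 genes and 1.79% of 10132 tested genes in the table. Of the 835 genes in the table that rose in KLF2 macrophages 2.28% held it, and of the 587 that fell 2.21%. A match describes the letters and is no measurement of binding.

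Genes of hypoxia and of the matrix rose in part. Of 22 genes of hypoxia and glycolysis 12 rose and 0 fell (median log2 change 1.44), and of 24 genes of matrix and growth factors 13 rose and 3 fell (median 1.92). Bnip3, a mitochondrial autophagy receptor induced by low oxygen, stood at 6.94, 200 and 118 CPM, and Slc2a1, a glucose transporter, at 6.48, 114 and 64.9 CPM. Vegfa, the vessel growth factor, stood at 5.55, 135 and 103 CPM (log2 change 4.08, SE 0.43, edgeR adjusted p = 0.001). In the other cells of the KLF2 libraries Bnip3 stood at 211 and 241 CPM and Vegfa at 74.5 and 105 CPM, against 5.57 and 4.07 CPM in the vector library. The change in macrophages did not pass the test against that in T cells for either (interaction log2 -0.06 and 0.60).

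Fn1, the matrix protein fibronectin, stood at 31.9, 1135 and 277 CPM, and Thbs1, thrombospondin, at 6.48, 521 and 112 CPM. Both were far higher in KLF2 replicate 1 than in KLF2 replicate 2. They lost their calls with the higher C1q minimum and in both narrower cell sets, and Fn1 under DESeq2 too. The number of hypoxia genes higher was 8 with the other size factors, 6 at the higher C1q minimum, 3 without cells holding a lymphocyte gene and 0 of 22 without Spp1-positive cells in edgeR, where 10 were higher at an unadjusted p of 0.05 and the median was 1.25.

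Bnip3 and Slc2a1 are shown since the core of the hypoxia response element, ACGTG, lies close to the start of both. Capitals mark it on either strand, and in Bnip3 the 2 matches form 1 palindrome.
Bnip3, chr7:138909507-138909656, minus strand: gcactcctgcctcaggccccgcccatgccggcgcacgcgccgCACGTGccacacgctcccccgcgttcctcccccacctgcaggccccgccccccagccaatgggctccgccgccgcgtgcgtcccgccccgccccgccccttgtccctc
Slc2a1, chr4:119108595-119108744, plus strand: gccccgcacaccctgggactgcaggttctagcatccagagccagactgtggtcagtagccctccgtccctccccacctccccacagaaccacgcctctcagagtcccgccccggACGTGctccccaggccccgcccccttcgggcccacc
The core was in 16 of the 20 hypoxia genes in the table (80.0%), against 21.8% of all genes and 29.0% of those tested. It was in 29.0% of the genes that rose and 23.5% of those that fell, so it did not mark the genes that rose as a whole.

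MHC class II genes fell in part. Of 15 genes 9 fell and 0 rose, with a median log2 change of -1.48. Their sum was 25783, 12720 and 17152 CPM in members and fell further in the other cells, from 4292 to 483 and 694 CPM. H2-Ab1 (chromosome 17, 34257689 to 34269419, plus strand, GRCm38), a chain of the peptide-presenting dimer, stood at 4498, 1572 and 2458 CPM (log2 change -1.50, SE 0.31, edgeR adjusted p = 0.018). H2-DMb2, which helps to load the peptide, stood at 19.9, 7.84 and 5.28 CPM, and Cd40, which receives help from T cells, at 58.3, 25.8 and 13.2 CPM. The fall of class II was weaker in KLF2 replicate 2 for H2-Ab1 but not for the other 2. After thinning 1 of 11 fell and 1 rose. Without cells holding a lymphocyte gene 1 of 15 fell (median -1.49), and without Spp1-positive cells 1 of 14 (median -0.88).

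MHC class I and interferon-stimulated genes fell as well, in part. Of 16 class I genes 13 fell and 0 rose (median log2 change -1.62). Tap1, the peptide pump, stood at 130, 26.8 and 28.5 CPM (log2 change -2.57, SE 0.27, edgeR adjusted p = 0.001), and Nlrc5, the activator of class I genes, at 31.0, 7.46 and 10.2 CPM. H2-Q6 and H2-Q7, with log2 changes of -2.07 and -1.77, are near-identical copies whose reads may have been split between them. In vector replicate 2 H2-Q6 and H2-Q7 stood at 60.2 and 160 CPM in members and at 204 and 366 CPM in the other cells. Nlrc5 stood at 31.0 against 42.7 CPM there, and Tap1 at 130 against 111 CPM. Of 28 interferon-stimulated genes 15 fell and 0 rose (median -1.47). Both lists fell further in the other cells of the libraries. The class I sum was 6402, 668 and 1230 CPM there, against 7142, 4743 and 4866 CPM in members. The interferon-stimulated sum was 1712, 278 and 551 CPM there, against 3842, 1132 and 1685 CPM in members. Ifit1, an antiviral protein, stood at 75, 3.25 and 18.9 CPM and Ifi205 at 41.2, 8.22 and 6.73 CPM.

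Ifit1 lost its call under DESeq2, at the lower mitochondrial limit, at the higher C1q minimum and in both narrower cell sets. Without cells holding a lymphocyte gene 8 class I and 4 interferon-stimulated genes were lower, and without Spp1-positive cells 1 and 1. Their medians without Spp1-positive cells were -1.47 and -1.42, near those of all members. T cells of the vector library far outnumbered those of the KLF2 libraries, and T cell markers in the members fell from 820 to 52.4 and 385 CPM summed over the list. Whether that had a part in the fall of the class I and interferon-stimulated genes was not tested.

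**Figure D5:**
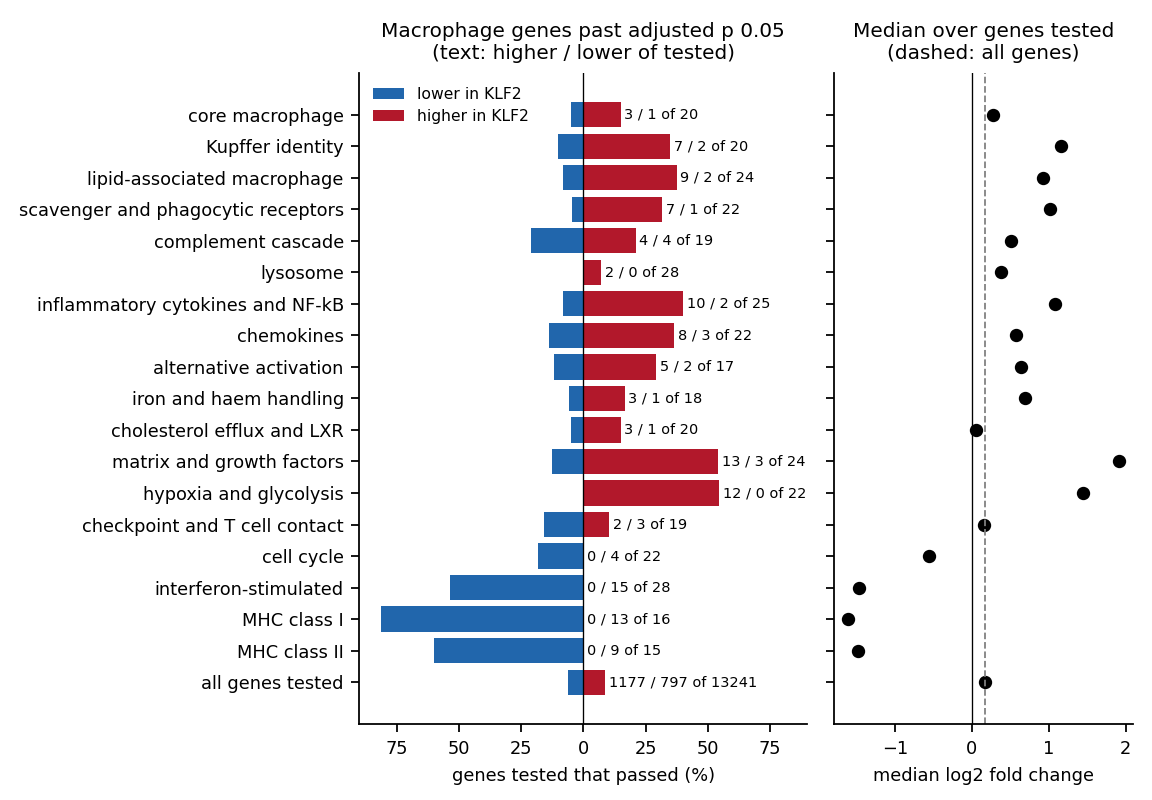
Percent of each list's tested genes that were higher (right bars) or lower (left bars) in the KLF2 macrophages at an adjusted p of 0.05, with the counts in print, and each list's median log2 fold change beside a dashed line at that of all genes. The MHC class I, MHC class II and interferon-stimulated lists hold 0 higher genes and the hypoxia list 0 lower ones. The core macrophage list includes Adgre1, a gene of the membership rule, so its bars are a description.

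The upstream sequences of Gbp2 and Ifit1 are shown for the interferon-stimulated response element, searched as GAAA and GAAA, 2 bases apart, on both strands, and those of H2-DMb2 and H2-Eb1, another class II chain gene, for the Y box, searched as ATTGG on both strands. Capitals mark the matches.
Gbp2, chr3:142620513-142620662, plus strand: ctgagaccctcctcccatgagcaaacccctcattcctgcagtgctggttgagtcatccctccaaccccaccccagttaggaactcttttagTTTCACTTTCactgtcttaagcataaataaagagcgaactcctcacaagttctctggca
Ifit1, chr19:34640739-34640888, plus strand: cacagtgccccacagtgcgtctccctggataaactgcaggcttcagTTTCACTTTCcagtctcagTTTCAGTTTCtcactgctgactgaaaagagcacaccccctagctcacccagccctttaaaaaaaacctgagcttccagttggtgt
H2-DMb2, chr17:34145099-34145248, plus strand: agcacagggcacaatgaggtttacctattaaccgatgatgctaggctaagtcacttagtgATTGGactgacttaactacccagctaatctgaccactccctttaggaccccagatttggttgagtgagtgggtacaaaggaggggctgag
H2-Eb1, chr17:34305717-34305866, plus strand: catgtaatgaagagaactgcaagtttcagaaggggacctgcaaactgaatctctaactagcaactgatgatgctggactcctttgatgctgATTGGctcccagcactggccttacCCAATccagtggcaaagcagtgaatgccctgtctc
The element was in 12 of the 23 interferon-stimulated genes in the table (52.2%), against 3.99% of all genes and 4.03% of those tested. Over all genes, 8.35% of those that fell and 5.03% of those that rose held it. The Y box was in 7 of 10 class II genes (70.0%) and in 11 of 14 class I genes (78.6%), against 41.1% of all genes. It was in 40.5% of all genes that fell, so a Y box by itself did not mark the genes that fell. These were 4 of the 6 motifs searched.

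Uptake receptors rose in part. Of 22 scavenger and phagocytic receptor genes tested 7 rose and 1 fell, with a median log2 change of 1.02. Without Spp1-positive cells 0 of 22 passed in edgeR, and the median was 0.72. Olr1, a receptor of oxidised lipoprotein, rested on 2 vector UMIs and stood at 0.926, 53.5 and 28.0 CPM, a pooled ratio of 40.0 with a counting interval of 11 to 331. Mfge8, which bridges dying cells to phagocytes, stood at 16.7, 159 and 132 CPM (log2 change 2.79, SE 0.36, edgeR adjusted p = 0.003). Lyve1, a hyaluronan receptor of some resident macrophages and of endothelium, had no UMI in the vector macrophages and 5.74 and 4.97 CPM in KLF2, at least 3.58-fold higher. In Mfge8 the KLF2 libraries were close together, and its log2 change turned to -0.35 without Spp1-positive cells.

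Genes of alternative activation, the state that interleukin 4 induces, did not move as 1 group. Of 17 tested 5 rose and 2 fell, with a median log2 change of 0.63. Besides Arg1 and Cd163, F13a1, a clotting factor chain, stood at 2.31, 128 and 30.5 CPM (log2 change 4.74, SE 1.12, edgeR adjusted p = 0.029) and Ccl24, which draws eosinophils, at 3.70, 79.9 and 35.1 CPM. KLF2 replicate 1 was the higher in both. Of 19 genes of T cell contact and checkpoints 2 rose and 3 fell, against 8.89% and 6.02% of all genes tested. Tnfsf9, the ligand of the costimulatory receptor 4-1BB, stood at 6.02, 88.3 and 54.0 CPM, while Lilrb4a and Cd40 fell.

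Genes that respond early to stimuli, and to the preparation of the cells, rose in part as well. Of 24 genes 6 rose and 1 fell (median log2 change 0.63). Ier3 stood at 40.7, 613 and 314 CPM and Fos, a part of the transcription factor AP-1, at 379, 1470 and 1561 CPM. Fos was at 527, 1032.5 and 1347 CPM in the other cells, which were higher in KLF2 too. Hspa1b, a heat shock chaperone, fell from 299 to 83.9 and 179 CPM. The part of the preparation in these changes was not tested.

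Complement, iron and cholesterol genes moved in both directions. Of 19 complement genes 4 rose and 4 fell. C3, the central protein of the cascade, stood at 200, 33.3 and 25.7 CPM (log2 change -3.11, SE 0.29, edgeR adjusted p = 7.4e-04) and Cfb, of the alternative pathway, at 144, 40.0 and 43.0 CPM. Itgam, a chain of complement receptor 3, rose from 36.1 to 389 and 163 CPM. In C3 and Cfb the KLF2 libraries were alike and far under the vector library. The other cells fell too, from 102 to 13.4 and 11.9 CPM for C3 and from 37.3 to 2.18 and 3.37 CPM for Cfb.

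Hmox1, which breaks down haem, stood at 52.8, 1151 and 413 CPM (log2 change 3.55), and Fth1, the iron store ferritin, at 2962, 17235 and 10759 CPM (log2 change 1.90). Fth1 was also higher in the other KLF2 cells, 4203 and 4081 CPM against 746 CPM. Of 18 genes of iron and haem 3 rose and 1 fell, against 8.89% and 6.02% of all genes tested. Abca1, which exports cholesterol, rose from 15.3 to 182 and 162 CPM (log2 change 3.15). It is a known target of LXRα, whose gene Nr1h3 fell. Of 20 cholesterol genes 3 rose and 1 fell, with a median log2 change of 0.05, so as a list they did not stand out from all genes tested.

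Of 22 cell cycle genes 4 fell and 0 rose (median log2 change -0.56). Mki67, a mark of cycling cells, stood at 64.3, 34.8 and 42.3 CPM. After thinning Mki67 was found in 4.68%, 2.32% and 3.08% of members and in 4.87%, 3.57% and 4.95% of T cells, no more than in T cells. Of 28 lysosome genes 2 rose, Ctsl and Lamp2, and 0 fell, so no larger share rose than the 8.89% of all genes tested.

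Klf2, the gene of the injected factor, was higher in the KLF2 macrophages. Klf2 (chromosome 8, 72319033 to 72321656, plus strand, GRCm38) stood at 151 CPM in vector replicate 2 and at 420 and 542 CPM in KLF2 replicates 1 and 2 (log2 change 1.33, SE 0.32, edgeR adjusted p = 0.030). In the other cells it stood at 403, 333 and 394 CPM, so the vector macrophages lay below the other cells and the KLF2 macrophages above theirs. Those other cells were unlike mixtures. T cells were 2935 of 8403 kept cells in vector replicate 2, and 84 of 6209 and 303 of 11103 in the KLF2 replicates. The part of that mixture in the comparison with the other cells was not tested. After thinning Klf2 was found in 13.5% (10.2 to 17.5) of the vector members and in 30.2% (25.8 to 34.9) and 34.4% of the KLF2 members. Whether a UMI came from the cell's own gene or from the plasmid cannot be told apart in these counts. The call was lost at the higher C1q minimum, after thinning, without cells holding a lymphocyte gene and without Spp1-positive cells. Of 9 KLF genes tested 2 rose, Klf2 and Klf9.

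To ask whether macrophages changed by more than other cells of the same libraries, their change was compared with that of T cells in 1 fit with the library as a block. Of 13866 genes, 461 lay above the change in T cells (3.32%) and 124 below it (0.894%). Spp1 (interaction log2 5.14), Arg1 (7.03) and Saa3 (9.16) were among those above, with T cell levels of 54.2, 27.8 and 119 CPM for Spp1. Genes that fell less in macrophages than in T cells also lay above: Cxcl9 (2.11), C3 (2.71) and Cfb (2.71). Their T cell log2 changes were -5.57, -5.73 and -4.68. Calhm6 (-1.46) and Ifit1 (-2.22) were among those below. Klf2 lay 2.15 above, since it stood at 454, 303 and 395 CPM in T cells. Trem2 lay 1.86 above (edgeR adjusted p = 0.040), though it did not pass in macrophages alone.

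Not every gene list that moved in macrophages differed from T cells. Of the 16 class I genes 0 passed the interaction in edgeR, and 1 lay below the T cells at an unadjusted p of 0.05. Bnip3 and Vegfa did not pass. Of the 22 hypoxia genes 4 passed, against 16 of 24 lipid-associated genes, all above T cells. A gene can lie above T cells without a rise in macrophages, where 9 of those 24 rose and 2 fell. Fabp4 lay 3.37 above, with a log2 change of -3.35 in macrophages and -6.46 in T cells. Of 15 class II genes 6 lay above T cells, in which H2-Ab1 stood at 490, 30.3 and 112 CPM, so for such genes the test also compares macrophages with free RNA in T cells. With monocytes in place of T cells, 42 genes lay above and 18 below, on 101, 66 and 105 cells.

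Markers of other cells moved within the members. Of 14 T and NK cell markers tested 11 fell and 0 rose, and in the other cells their sum went from 3886 to 122 and 212 CPM. Of 12 hepatocyte markers 11 fell and 1 rose (sums 744, 532 and 312 CPM), of 13 endothelial markers 9 fell and 1 rose (sums 496, 416 and 311 CPM), and of 10 mesenchymal markers 7 fell. Of 9 biliary markers 5 rose (sums 32.4, 185 and 641 CPM), with Krt19 at 0, 32.7 and 57.5 CPM in members and at 1.30, 104 and 178 CPM in the other cells. Biliary genes were thus lower in members than in the cells around them. Of 15 monocyte markers 3 rose and 3 fell. Ly6c2, a marker of classical monocytes, stood at 38.0, 17.6 and 7.35 CPM in members and at 464, 347 and 401 CPM in monocytes. It is among the genes by which the monocytes were chosen, so its level there is a description. After thinning, Ly6c2 was also found in 12.7%, 14.3% and 14.2% of T cells. The part of these transcripts in the results above was not tested.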

How the data were processed

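The deposited files hold UMI counts per gene and cell barcode for 3 of the 4 libraries, written by PISA 1.0 per the file headers, on GRCm38 per the submitters' processing notes. The libraries came from a DNBelab C Series droplet kit per the labels' protocols. The aligner, the gene annotation and the authors' cell calling: not given in the sources used here.

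Cells were kept if 300 or more genes were found and no more than 25% of UMIs were mitochondrial. Scrublet in scanpy 1.11.5 called 0 doublets and had not worked, so no cell was removed by it. The members' UMIs were summed per library and tested with edgeR 4.0.16 (R 4.3.3): TMM, filterByExpr, quasi-likelihood fit with 1 residual degree of freedom, Benjamini-Hochberg adjustment at 0.05. The vector library is assumed to vary like the KLF2 libraries. On simulated counts for 13046 genes this fit called 19 of 100 genes changed 2-fold and 88 of 100 changed 4-fold, with 3 false calls. For 13372 genes the fit against T cells called 5 and 43 of 100, with 2 false calls. Within a cell class the simulated libraries shared a pooled profile and a fixed spread, and the changed genes were drawn from well-counted ones. The simulation lacked the real gaps in mitochondrial share and gene list. Its false calls are therefore no error rate for the real libraries. Shares of cells with a gene were taken after thinning to 1000 UMIs, which left out 2 vector members. T cells hold 2 or more UMIs of Cd3d, Cd3e and Cd3g. Monocytes hold at least 2 of the genes Ly6c2, Ccr2, Vcan, F13a1 and Chil3, with C1q under the threshold. Windows around gene starts came from RefSeq GRCm38.p6 and were matched by symbol.

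The members and all gene lists were chosen with earlier results of these data known. Named genes are the 12 highest and 12 deepest past 0.05 whose mean reached 30 CPM, at least 2-fold apart in each KLF2 library and at least 2-fold above the other cells of the higher group. Predicted, Rik, clone, mitochondrial, ribosomal and haemoglobin genes and the genes of the membership rule were left out of that ranking, and 1 ranked gene is not reported here. From each of 32 lists up to 4 members past 0.05 with the largest change were added, or the 2 most abundant where none passed. The rule genes, Clec4f, Vsig4, Spp1, Trem2 and Klf2 were always given. Cd5l, Timd4, Apoc1, Slc40a1, Gpnmb, Mmp12, Fabp5 and H2-Eb1 were named after their values were seen. Alternatives were other size factors, DESeq2 1.42.0, other cell filters, thinned cells, narrower cell sets and leaving out each KLF2 library.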

Additional observations from a re-analysis of the deposited data

Results flagged for a closer look

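A test of the difference between macrophages and T cells, in the change from vector to KLF2, found 461 genes whose change lay above that in T cells and 124 below it (edgeR, 3.32% and 0.894% of 13866 genes). Among the genes always given, Klf2 differed by 2.15 on the log2 scale, Spp1 by 5.14 and Trem2 by 1.86. Among the genes that rose most, Arg1 differed by 7.03, Cxcl2 by 2.23 and Saa3 by 9.16. Genes that fell less in macrophages than in T cells, such as Cxcl9 (2.11), count as above too. The KLF2 libraries held 84 and 303 T cells, so the T cell levels of these genes rest on few cells there.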

How the results depend on the processing

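Against 1177 genes higher and 797 lower, DESeq2 called 544 and 407, no filter on low counts 2183 and 1243, a C1q minimum of 10 per 10000 called 499 and 365, and thinned cells 286 and 175. Chosen after seeing the data, leaving out members with a lymphocyte gene gave 279 and 225, and leaving out Spp1-positive cells 75 and 97. More genes entered the fit without a filter, and fewer cells or fewer UMIs the last 4, and what else moved the counts was not tested. Against T cells, the other size factors gave 252 genes above in place of 461, and monocytes gave 42 above and 18 below in place of 461 and 124. The mean KLF2 share of macrophages, 1.94 times the vector share, was 6.39 times among cells with a Ptprc UMI. The Kupffer-like ratio of 2.05 was 2.69 at a mitochondrial limit of 10%, 1.81 at the higher C1q minimum, 2.62 unthinned and 2.81 for cells with both genes. The Spp1 ratio of 5.18 was 4.19, at that mitochondrial limit, 2.95 unthinned and 13.3 at 5 UMIs per 10000. Without either KLF2 library the 3 ratios ranged from 1.53 to 2.36, 1.94 to 2.16 and 4.65 to 5.70. Without Spp1-positive cells Mfge8, which had risen, went to -0.35. The log2 changes of C1qb and Cd68, genes of the membership rule given as a description, turned sign there, to 0.068 and -0.045. That of Ptprc, also of the rule, turned to 0.042 at the lower mitochondrial limit and to 0.019 without the top 5% of doublet scores.

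No paired analysis was possible because only replicate number 2 had counts in both groups. Leaving out a KLF2 library left 1 against 1, so only folds were taken, and leaving out the vector library left no comparison. The vector members' depth, 2160557 UMIs in all, makes 3 UMIs worth 1.39 CPM, and folds of genes near that level are bounds or wide intervals.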
